A study of Mus musculus with 6 samples.

Results

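The 36 genes described here encode the structural proteins of the extracellular matrix and the enzymes, inhibitors and chaperones that assemble or remodel it. They were chosen by name, with earlier results of these data known, and all 36 had a row among the 31253 genes of the deposited tables. Livers of 6 mice were profiled by droplet 3′ single-cell RNA sequencing, with 1 library per mouse. All 6 mice carried floxed alleles of Sting (Stingfl/fl), the gene of an adaptor that signals the presence of DNA in the cytosol. The 3 knockout mice also carried Cdh5-Cre (Stingfl/fl Cdh5-Cre+), in which the promoter of VE-cadherin drives the recombinase in endothelium, and the 3 controls were littermates without it (Stingfl/fl Cdh5-Cre-). Both groups ate chow until 8 weeks of age and then received a western diet with carbon tetrachloride (WD-CCl4) over 12 weeks, which brings on metabolic dysfunction-associated steatohepatitis. Since every mouse had this injury, no level below can be set against a healthy liver.

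Fibrillar collagens are secreted as procollagens that are folded with the chaperone HSP47 (Serpinh1), trimmed outside the cell and crosslinked by lysyl oxidases into fibres. Basement membranes are sheets of collagen IV under endothelium, around smooth muscle and below bile duct epithelium, whereas small proteoglycans, fibulins and matricellular proteins decorate and space the fibres. Matrix metalloproteinases cut these proteins and are held in check by the tissue inhibitors of metalloproteinases (TIMPs), and in chronic liver injury the balance shifts toward scar. Stellate cells and portal fibroblasts are the best known sources of scar collagen.

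The 6 libraries held 55017937 to 73867890 unique molecular identifiers (UMIs, 1 per captured transcript), and 41744 cells were kept. Classes named from transcripts are called "-like": smooth muscle-like (709 cells, 12 to 397 per library), Dpt fibroblast-like (536, 43 to 176), mesothelial-like (2537, 280 to 644), endothelial-like (2299, 158 to 518) and cholangiocyte-like cells (2277, 96 to 791). A cluster led by Osr1 and Fndc1 (321 cells, 10 to 86) had mixed markers and is not named as fibroblasts. It held the mesothelial genes Wt1 (1091 per 1000000 UMIs of the cluster) and Upk3b (920.5), while the fibroblast genes Dpt and Pdgfrb stood at 1.60 and 9.28. Clec3b and Pdgfra, also fibroblast genes, stood at 281 and 44.6, against 48.3 and 13.4 in mesothelial-like cells. The 12 markers of Dpt fibroblasts summed to 2671 to 4182 per library, against 1664 to 2269 in mesothelial-like and 14333 to 21887 in Dpt fibroblast-like cells. The 10 mesothelial markers summed to 5623 to 6969.5 in this cluster, about as high as in mesothelial-like cells (5721 to 6477). The cells of this cluster are called Osr1 Fndc1 cells. The labels name liver sinusoidal endothelial cells, but the matrices hold many cell types, and the cluster led by the sinusoidal genes Stab2 and Clec4g had 217 cells, 5 and 8 of them in controls 1 and 2. Sting1 in endothelial-like cells stood at 30.3, 24.2 and 28.6 normalised counts per 1000000 (CPM) in controls 1 to 3 and at 21.9, 12.2 and 22.5 in knockouts 1 to 3 (edgeR log2 fold change -0.51, SE 0.23, adjusted p = 0.842). The groups did not overlap, although a 3′ tag outside the deleted exons would not show the deletion. Control 2 carried traces of pancreas RNA (Ctrb1 at 162 per 1000000 UMIs, against 10.1 in knockout 1 and under 1 elsewhere) and knockout 2 traces of stomach RNA (Gkn1 at 75.8); the part of these in the results was not tested.

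Levels across classes are given per 1000000 UMIs of that class in a library (UPM), as mean ± SD over the 6 libraries of both genotypes. A 3′ library gives 1 tag per captured transcript, so levels were not divided by gene length. The members made up 29680.2 ± 7388 UPM in Dpt fibroblast-like cells, 15973 ± 1675 in Osr1 Fndc1 cells and 10421 ± 695 in mesothelial-like cells. They made up 6219 ± 790.2 in endothelial-like, 6213 ± 590.5 in smooth muscle-like and 1739 ± 87.9 in cholangiocyte-like cells, and the values of the endothelial-like and smooth muscle-like classes overlapped. T-like and B-like cells, which should lack nearly all of these transcripts, gave 42.5 ± 4.56 and 24.5 ± 4.98. Among single members, Timp2 in T-like cells (20.6 ± 5.85) was the only value of at least 10 in these lymphocyte classes. Cells were clustered with the 36 genes left out, but genes that vary with them stayed in, so the differences between classes are a description without a test.

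Among the 6 classes, Dpt fibroblast-like cells had the highest mean for 29 of the 36 members, and smooth muscle-like cells for 4 (Col4a1, Col4a2, Col18a1 and Thbs1). Cells outside the 6 classes were not ranked, and for Fn1 and Tnc some of these stood higher, as given below. Endothelial-like cells had it for Col8a1 and Timp3, and mesothelial-like cells for Timp1. Of the 29, 15 were higher in the Dpt fibroblast-like class than in the next class in all 6 libraries, and for 10 the ranges of both classes did not overlap. The heat map of mean levels gives all members and classes.

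**Figure D1:**
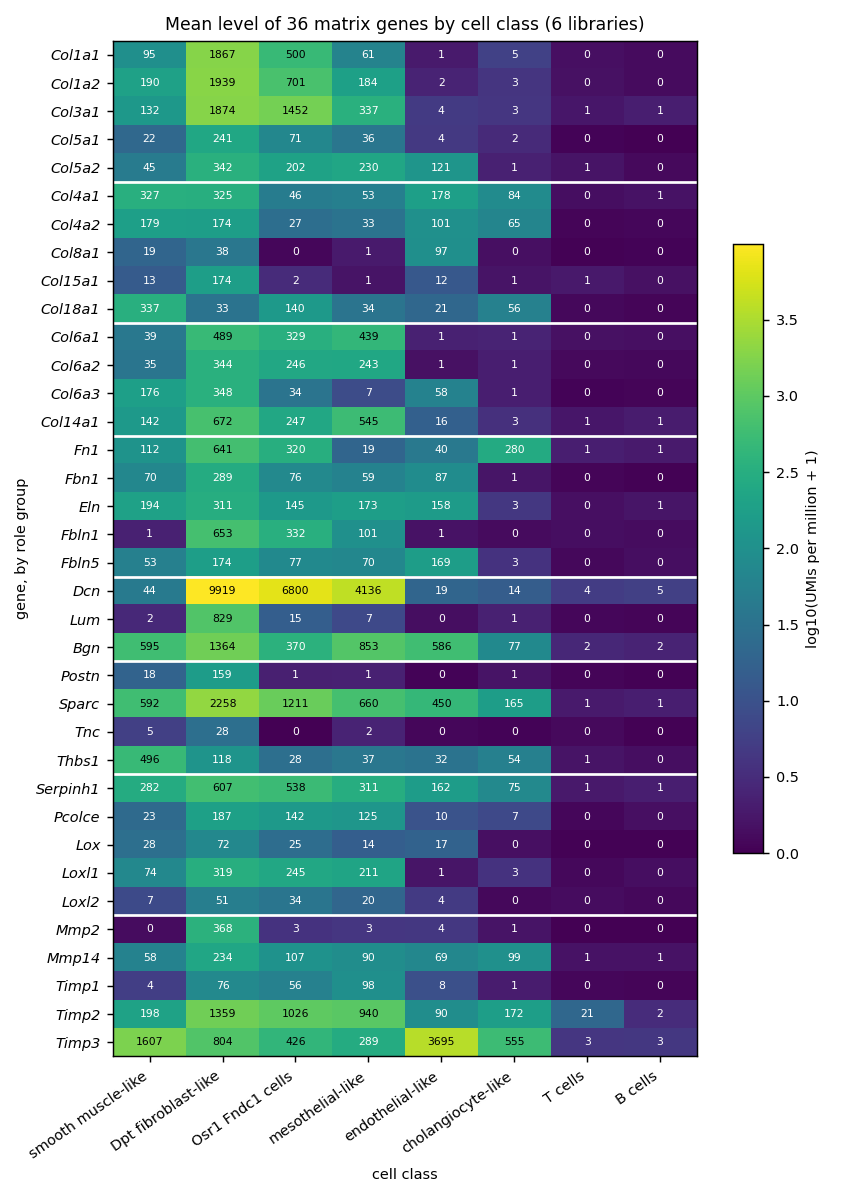
Heat map of the mean level of each of the 36 genes (rows, in 8 role groups parted by white lines) in 6 cell classes and in T and B cells (columns), as UPM averaged over 6 libraries; colour is log10 of the level plus 1. The Dpt fibroblast-like column is highest for 29 genes, Timp3 peaks in endothelial-like cells at 3695, and the T and B columns stay at 20.6 or less.

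Among the fibrillar collagens, Col1a1 and Col1a2, which form type I collagen, were concentrated in Dpt fibroblast-like cells. Col1a1 stood there at 1867 ± 1209.8 UPM, against 500.1 ± 146 in Osr1 Fndc1 cells, 95.4 ± 60.2 in smooth muscle-like and 61.2 ± 27.3 in mesothelial-like cells. It was at 5.01 ± 4.67 or less in cholangiocyte-like and endothelial-like cells. Col3a1, the chain of type III collagen and the fibrillar member with most UMIs, was spread more evenly: 1874 ± 884 in Dpt fibroblast-like cells, 1452 ± 427 in Osr1 Fndc1 cells and 337 ± 51.3 in mesothelial-like cells. The values of the former pair overlapped, with the Dpt fibroblast-like class higher in 4 of 6 libraries. Of the type V chains, which start fibrils, Col5a1 stood at 241 ± 72.8 in Dpt fibroblast-like cells and at 71.0 ± 17.0 or less elsewhere. Col5a2 was also found in mesothelial-like (229.7 ± 32.9), Osr1 Fndc1 (202 ± 48.0) and endothelial-like cells (121 ± 22.8).

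Because type I collagen is built of 2 α1 chains and 1 α2 chain, the ratio of the transcripts was compared between classes where a library held at least 10 Col1a1 UMIs. Dpt fibroblast-like cells held 1.20 ± 0.379 Col1a2 UMIs per Col1a1 UMI, and Osr1 Fndc1 cells 1.45 ± 0.242. The ratio was 2.17 ± 0.963 in smooth muscle-like cells (5 libraries) and 3.41 ± 1.15 in mesothelial-like cells. In mesothelial-like cells the lowest library (2.30) lay above the highest of the Dpt fibroblast-like class (1.86), so Col1a2 exceeded Col1a1 there in every library.

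The basement membrane collagens had another order. Col4a1 and Col4a2, which encode the chains of the common type IV collagen, lie head to head on opposite strands of chromosome 8, with their starts overlapping by 22 bases. The stretch is shown because both genes start inside it (RefSeq, GRCm38.p6, chr8:11312801-11312830, plus strand). Capitals mark the 22 bases that lie in both genes, from the start of Col4a2 at 11312805 to the start of Col4a1 at 11312826.
Col4a1 and Col4a2 starts: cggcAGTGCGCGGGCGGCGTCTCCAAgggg
The levels of the pair followed the same order of classes. Col4a1 stood at 327 ± 59.6 in smooth muscle-like and 325 ± 103 in Dpt fibroblast-like cells, which did not differ beyond their spread, then at 178 ± 44.7 in endothelial-like, 84.0 ± 8.86 in cholangiocyte-like, 52.7 ± 9.54 in mesothelial-like and 46.0 ± 26.4 in Osr1 Fndc1 cells. Col4a2 stood at 179 ± 42.4, 174 ± 56.2, 101 ± 20.6, 64.6 ± 8.43, 32.6 ± 4.25 and 27.2 ± 13.6 in these classes. Across the 5 classes in which all 6 libraries held at least 10 Col4a2 UMIs, the mean ratio of Col4a1 to Col4a2 UMIs lay between 1.31 ± 0.148 in cholangiocyte-like and 1.90 ± 0.292 in Dpt fibroblast-like cells.

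Col18a1, whose product carries the endostatin domain, was highest in smooth muscle-like cells, at 291, 315 and 241 UPM in the controls and 405, 349 and 419.5 in the knockouts. The next class, Osr1 Fndc1 cells, stood at 139.6 ± 22.9 and did not overlap it. Hepatocyte-like cells also held it (227 ± 35.2). Col15a1, a close relative found in basement membranes, had a different place: 174 ± 74.2 in Dpt fibroblast-like cells and 12.8 ± 4.70 or less in the other classes. Col8a1, a short-chain collagen of vessel walls, stood at 96.7 ± 49.7 in endothelial-like cells and 37.6 ± 17.7 in Dpt fibroblast-like cells, with overlap.

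Of the type VI collagen chains, which form beaded filaments, Col6a1 and Col6a2 were shared by Dpt fibroblast-like (489 ± 133 and 344 ± 104), mesothelial-like (439 ± 53.2 and 243 ± 54.8) and Osr1 Fndc1 cells (329 ± 76.8 and 246 ± 40.7). The third chain differed. Col6a3 stood at 348 ± 103 in Dpt fibroblast-like cells, 176 ± 60.3 in smooth muscle-like and 58.0 ± 12.2 in endothelial-like cells, but at 7.36 ± 3.25 in mesothelial-like cells, where the other two were abundant. Col14a1, a collagen that binds the surface of fibrils, was found in Dpt fibroblast-like (672 ± 72.0) and mesothelial-like cells (545 ± 109). It was higher in the former in all 6 libraries, with overlapping ranges.

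Among the glycoproteins and elastic fibre proteins, Fn1 (fibronectin, which binds integrins and seeds collagen assembly) stood at 641 ± 159.9 in Dpt fibroblast-like cells, 319.9 ± 152 in Osr1 Fndc1 cells and 279.6 ± 18.9 in cholangiocyte-like cells. Mesothelial-like cells held 19.4 ± 6.21. Hepatocyte-like cells, the source of plasma fibronectin, held 691 ± 85.2. Fbn1 (fibrillin-1) stood at 289 ± 73.7 in Dpt fibroblast-like cells and at 87.4 ± 24.1 or less in the other classes. Eln (elastin) was more even, with 311 ± 150.2 there, 194 ± 54.4 in smooth muscle-like, 173 ± 54.4 in mesothelial-like, 158 ± 32.2 in endothelial-like and 145 ± 51.1 in Osr1 Fndc1 cells. The fibulins, which link elastic fibres to other proteins, differed from each other: Fbln1 reached 653 ± 149.8 in Dpt fibroblast-like cells and 0.558 ± 0.504 in endothelial-like cells. Fbln5 stood at 174 ± 60.9 and 169 ± 59.1 in the same classes, which did not differ beyond their spread.

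Dcn (decorin, a proteoglycan that binds collagen fibrils and TGF-β) was the most abundant member in 3 classes. It stood at 9919 ± 1617 in Dpt fibroblast-like cells, 6799.8 ± 1058 in Osr1 Fndc1 cells and 4136 ± 538 in mesothelial-like cells, and at 43.6 ± 86.4 or less in the other 3 classes. Lum (lumican), a related proteoglycan next to Dcn on chromosome 10, was far narrower. Lum stood at 829 ± 219 in Dpt fibroblast-like cells, 14.7 ± 13 in Osr1 Fndc1 cells and 6.71 ± 9.22 in mesothelial-like cells. Bgn (biglycan) was broad, from 1364 ± 263 in Dpt fibroblast-like cells through 853 ± 118 in mesothelial-like, 595 ± 86.0 in smooth muscle-like and 586 ± 88.9 in endothelial-like cells to 76.6 ± 8.35 in cholangiocyte-like cells.

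The matricellular members, which modulate how cells meet the matrix, had 4 different distributions. Sparc (osteonectin, a collagen-binding protein) was the broadest, at 2258 ± 1174 in Dpt fibroblast-like cells and not below 165 ± 25.1 in any of the 6 classes. Thbs1 (thrombospondin-1, which binds and activates latent TGF-β) was highest in smooth muscle-like cells, at 446, 603 and 566 UPM in the controls and 167, 584 and 609 in the knockouts. The low library, knockout 1, rests on 12 cells, and even so it exceeded the Dpt fibroblast-like value of its own mouse (99.3). Postn (periostin) was nearly limited to Dpt fibroblast-like cells among the 6 classes, at 159 ± 59.1 against 17.5 ± 6.81 in smooth muscle-like cells, and Tnc (tenascin-C) stood at 28.3 ± 32.5 in Dpt fibroblast-like cells. Part of that class was led by genes of other cell types, as described below. Without those cells Postn stood at 105 ± 50.8 and Tnc at 12.1 ± 14.9, with Tnc at 0 in controls 1 and 2 and knockout 2. A lymphatic cluster of 334 cells, led by Ccl21a and Mmrn1 and left out of the endothelial-like class, also held Postn (109) and Tnc (52.4).

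Of the processing genes, Serpinh1 followed the collagens in a flatter form: 607 ± 211 in Dpt fibroblast-like, 538 ± 189 in Osr1 Fndc1, 311 ± 114.6 in mesothelial-like and 282 ± 47.1 in smooth muscle-like cells. Pcolce, which enhances the trimming of procollagen, stood at 187 ± 94.9, 142 ± 35.5 and 125 ± 31.1 in the former 3 classes and at 22.7 ± 7.22 in smooth muscle-like cells. Among the lysyl oxidases Loxl1 was the highest, at 319 ± 114 in Dpt fibroblast-like cells, followed there by Lox (72.4 ± 42.7) and Loxl2 (50.9 ± 29.5). Loxl1 was at 0.656 ± 0.837 in endothelial-like cells, in which Lox stood at 16.7 ± 5.71.

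The proteases and their inhibitors were distributed unlike each other. Mmp2 (gelatinase A) stood at 368 ± 89.5 in Dpt fibroblast-like cells and at 3.5 ± 1.76 or less in the other 5 classes. Mmp14, the membrane-bound activator of Mmp2, was in all 6 classes, from 58.4 ± 14.5 in smooth muscle-like to 234 ± 64.1 in Dpt fibroblast-like cells. Timp3, the inhibitor that stays bound to the matrix, was highest in endothelial-like cells, at 2619, 3659 and 3902 UPM in the controls and 3281, 4597 and 4115 in the knockouts. Every one of these lay above the highest smooth muscle-like library (1944). Timp2, which takes part in Mmp2 activation, stood at 1359 ± 127 in Dpt fibroblast-like, 1026 ± 85.6 in Osr1 Fndc1 and 939.6 ± 81.8 in mesothelial-like cells. It had the smallest variation between libraries among members of at least 10 UPM in 5 of the 6 classes, with a coefficient of variation between 4.18% and 13.1%. Timp1, the inhibitor that rises in liver injury, stood at 97.7 ± 50 in mesothelial-like, 75.6 ± 71.4 in Dpt fibroblast-like and 55.6 ± 28.1 in Osr1 Fndc1 cells, and these 3 classes overlapped.

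**Figure D2:**
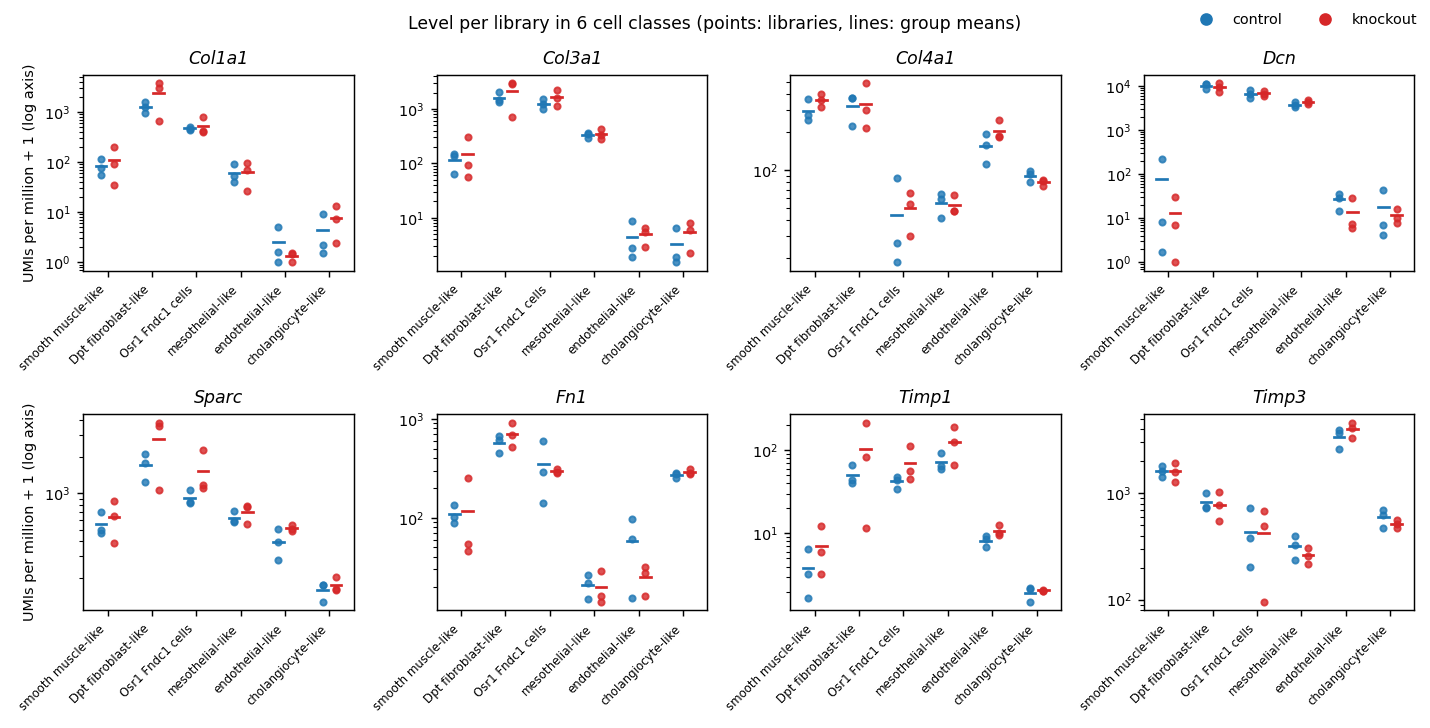
Level of 8 members in each library (points) and the mean of 3 libraries (lines) for controls in blue and knockouts in red, in UPM plus 1 on a log axis, by cell class. Col1a1 in Dpt fibroblast-like cells spreads from 676 to 3727 among the knockouts.

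Where the transcripts of the recovered cells lay also depends on how many cells each class held. Mesothelial-like cells, the lining of the liver surface, held 51.7% ± 10.2 of all member UMIs, Dpt fibroblast-like cells 11.2% ± 5.84 and endothelial-like cells 12.4% ± 3.62 (SD, n = 6). Mesothelial-like cells held 82.3% ± 9.36 of Timp1, 80.4% ± 7.99 of Col14a1 and 72.6% ± 11.4 of Dcn UMIs. Dpt fibroblast-like cells held 87.7% ± 7.25 of Lum and 48.7% ± 16.4 of Col1a1 UMIs, endothelial-like cells 82.4% ± 9.98 of Col8a1, and cholangiocyte-like cells 46.8% ± 12.8 of Fn1. These shares describe the recovered cells, since dissociation can favour some classes.

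**Figure D3:**
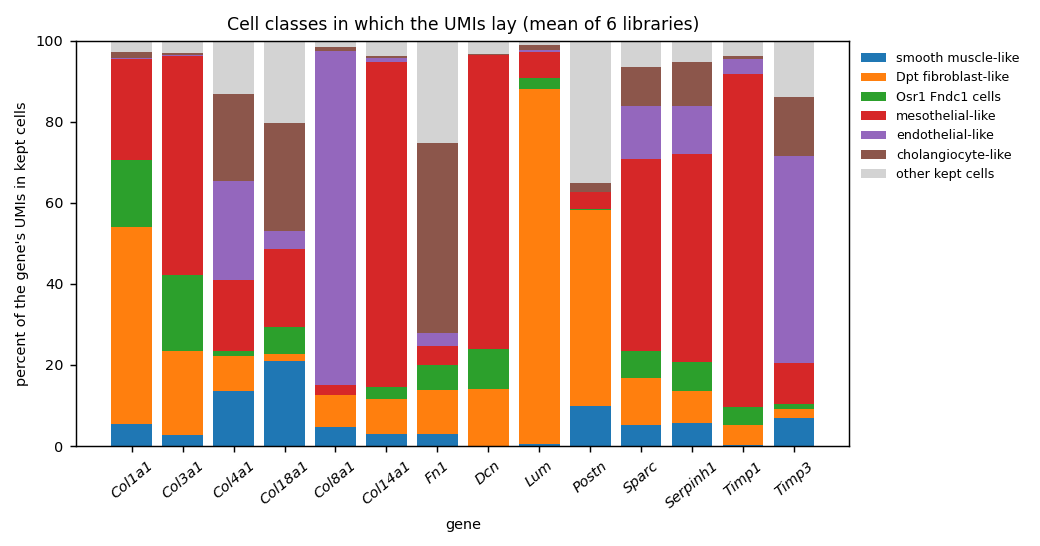
Stacked bars of the percent of each gene's UMIs in kept cells that lay in each class (mean of 6 libraries), for 14 members. Mesothelial-like cells hold most of Timp1 (82.3%) and Dcn (72.6%), endothelial-like cells most of Col8a1 (82.4%), and Dpt fibroblast-like cells most of Lum (87.7%).

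The Dpt fibroblast-like class was not uniform. Split into 8 sub-clusters, again without the members, it held 97 cells led by Dkk2 and Sfrp2 with the highest Dcn (17122 UPM, pooled over libraries), Sparc (5243) and Col3a1 (3557) of the 8. The Sparc and Col3a1 levels there came mostly from knockout 3 (15076 and 9912), while the other 5 libraries stood at no more than 1765 and 1640.3. A sub-cluster of 157 cells led by Chrm3 and Cxcl13 held Col1a1 at 1025. The 63 cells led by Pi16 and Dpp4, genes of adventitial fibroblasts, had the highest Fn1 (2294), Fbn1 (1016) and Timp2 (2726). The 58 cells led by Saa3 and Alcam had the highest Col1a1 (3906), Lum (1979), Col6a3 (707) and Timp1 (148), with Fbln1 at 106. Knockout 1 carried the most Col1a1 there (10343, against 2337 to 3217 in the others) and most Timp1 (625). The 22 cells led by Ank3 and Reln held Lrat, a gene of stellate cells, at 667, Bgn at 2090.4 and Fbln1 at 13.3. Control 3 gave 15 of these 22 cells and each other library 3 or fewer, so the pooled levels rest mostly on 1 mouse. These cells are not shown to be the only source of Lrat in the class. With the mixed sub-clusters described below left out, Lrat stood at 0, 51.7 and 154 UPM in the controls. It stood at 102, 100 and 68.7 in the knockouts, and knockout 3 gave 1 of the 22 cells. These sub-clusters were defined after the data were seen and are given without a test.

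The other 3 sub-clusters were led by genes of other cell types: smooth muscle genes such as Acta2 (37 cells), epithelial genes such as Krt8 (58) and immune genes such as Igha (44). They made up 139 of 536 cells, and their share differed between libraries: 22.6%, 31.3% and 25.0% in the controls and 0%, 51.2% and 24.3% in knockouts 1, 2 and 3. Acta2 in the class stood at 972, 424 and 559 UPM in the controls and at 33.1, 2479 and 607 in the knockouts. Among the knockouts the order was the reverse for Col1a1, while the controls had the same order for both genes: Col1a1 stood at 1615, 961 and 1263 in the controls and 3727, 676 and 2958 in the knockouts. Knockout 2 held the lowest value of the 6 libraries for 27 of 36 members and the highest for 0, and knockout 1 the highest for 22. With the 3 mixed sub-clusters left out, Acta2 stood at no more than 33.1 in any library, and Col1a1 in knockouts 1 to 3 was 3727, 894 and 3428.

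**Figure D4:**
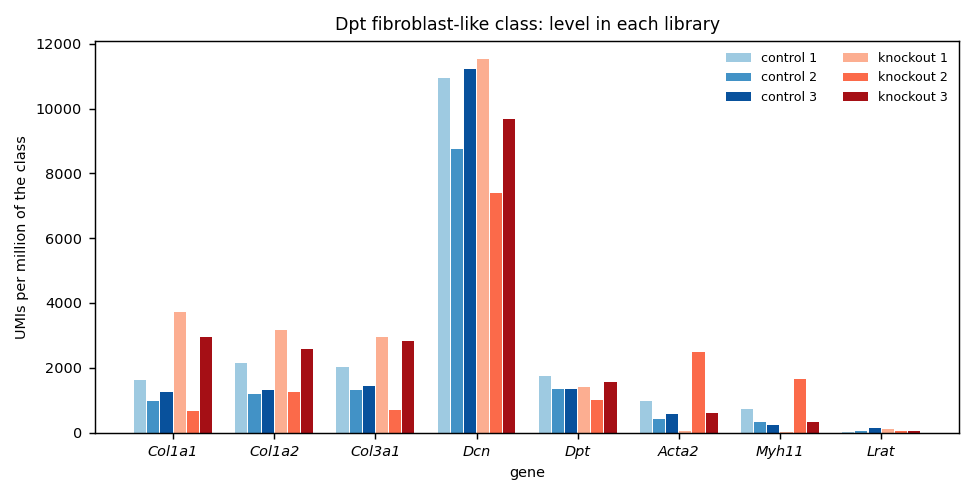
Bars of the level of 4 members and 4 marker genes in the Dpt fibroblast-like class of each library (controls in blues, knockouts in reds), in UPM. Knockout 2 has the lowest Col1a1 (676) and the highest Acta2 (2479), and knockout 1 the highest Col1a1 (3727) and the lowest Acta2 (33.1).

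The endothelial-like class joined 3 clusters that differed in their matrix genes. The cluster led by Mecom and Ntn4 (880 cells), in which the arterial gene Gja5 stood at 327 UPM, held Col8a1 at 232 and Col5a2 at 259, against 0.793 and 28.3 in the venous-type cluster led by Rspo3 and Selp (1202 cells). Col6a3 went the other way, with 4.45 in the former and 101 in the latter. Fbln5 stood at 224 and 123 in these and at 0.749 in the sinusoidal cluster. That cluster had Col4a1 at 303 and Mmp14 at 202, the highest of the 3 clusters, and Timp3 at 2459 against 5749 and 2467 in the other two.

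The genotype comparison asked whether deletion of Sting in endothelium went with other matrix transcript levels within each class. UMIs were summed per library and class and tested over all genes with the quasi-likelihood test of edgeR, with Benjamini-Hochberg adjustment and a threshold of 0.05, and values are CPM normalised within the class (TMM). No member passed in any of the 6 classes. A difference described below is therefore not shown to exceed the spread between mice, and one that missed the threshold is not shown to be absent. The plot of log2 fold changes gives every tested member.

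**Figure D5:**
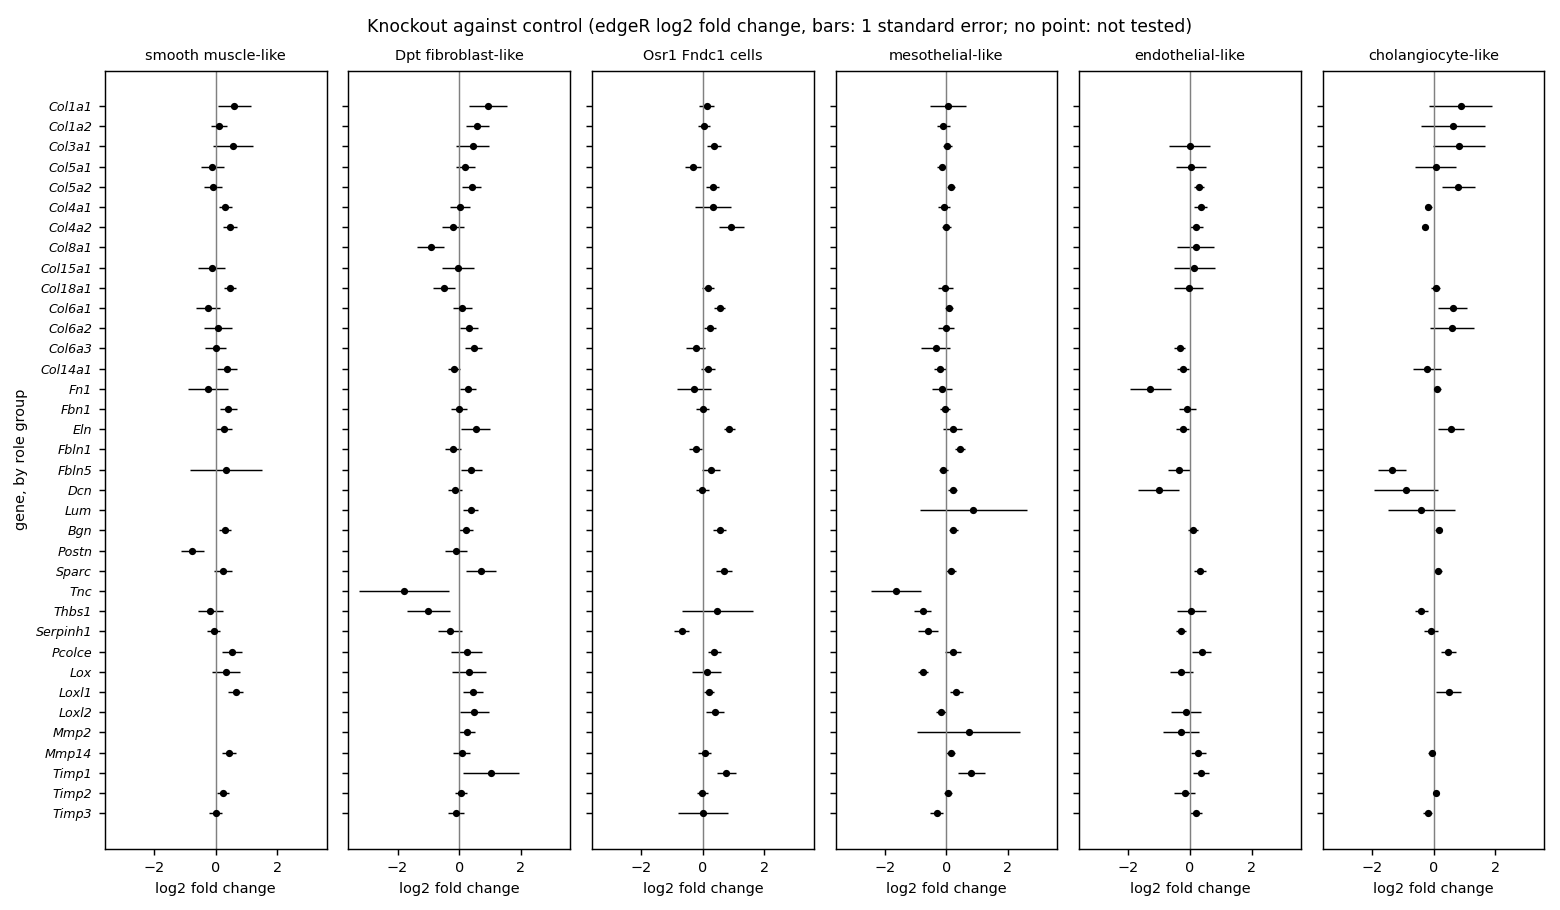
Log2 fold change of knockout against control (points) with 1 standard error (bars) from edgeR for each tested member in 6 cell classes; positive values are higher in knockout, and a missing point means that the gene did not pass the filter on low counts. The number of members tested runs from 25 in cholangiocyte-like to 36 in Dpt fibroblast-like cells, and none passed the threshold.

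In endothelial-like cells, which held transcripts of Cdh5, the gene whose promoter drives Cre, 27 members were tested. edgeR called 0 of them, as it called 0% of 11716 genes, and 0 members had an unadjusted p under 0.05 (5.49% of genes had). DESeq2 called 0 members and 0.111% of genes. Of the 27, 13 had a positive and 14 a negative log2 fold change, with a median of -0.01 against 0.01 over all genes. Fn1 stood at 61.7, 97.2 and 15 CPM in the controls and 29.7, 25.9 and 15.1 in the knockouts. Controls 1 and 2 were above all knockouts and control 3 was the lowest of the 6, so the groups overlapped (log2 fold change -1.29, SE 0.67, adjusted p = 0.842). Without control 2 the log2 fold change was -0.60. In the Mecom and Ntn4 cluster alone Fn1 stood at 265, 183 and 22.4 UPM in the controls and 108, 43.6 and 30.7 in the knockouts.

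Col4a1 in endothelial-like cells stood at 114, 158 and 197 CPM in the controls and at 176, 241 and 186 in the knockouts. The lowest library was a control and the highest a knockout, but the ranges overlapped (log2 fold change 0.35, SE 0.21, adjusted p = 0.842). It was 0.17 without control 1, 0.55 without control 3 and 0.20 without knockout 2. Col5a2 stood at 124, 107 and 99.6 CPM against 108, 134 and 159, with overlap (0.29, SE 0.16, adjusted p = 0.842). Col6a3 stood at 78.9, 67.3 and 51 CPM against 52.8, 41.9 and 58.3, with overlap (-0.34, SE 0.19, adjusted p = 0.842). Timp3, the most abundant member, differed by 0.18 (SE 0.19, adjusted p = 0.903). Timp1 was the only member whose groups did not overlap, with every knockout above every control at levels of 5.91 to 11.2 CPM, where 6.09% of genes showed the same, and 0 members separated downward against 6.15% of genes. The summed level of the 12 endothelial markers, all 12 of them detected, was 7710 to 8113 UPM in the controls and 8972 to 10469 in the knockouts, without overlap. Not every marker separated: Cdh5 stood at 561, 651 and 587 against 650, 709 and 674, and Pecam1 at 1290, 1327 and 1102 against 1295, 1571 and 1280. Hspa1b, a heat shock gene, stood at 4404, 7564 and 6813 CPM against 2609, 3418 and 3333 (-1.01, SE 0.21, adjusted p = 0.842), with every knockout below every control. The composition of the class also moved between libraries: the Mecom and Ntn4 cluster gave 32, 247 and 170 cells in the controls and 114, 110 and 207 in the knockouts. The part of these 3 in the member differences was not tested.

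In smooth muscle-like cells, the contractile cells of vessel walls, 28 members were tested and edgeR and DESeq2 each called 0, as they called 0% of 8203 genes. 2 members had an unadjusted p under 0.05, as had 3.51% of genes. 19 of the 28 had a positive log2 fold change, with a median of 0.26 against one near 0 over all genes. The summed level of the 9 smooth muscle markers, all 9 detected, separated in the same direction, from 17028 to 20720 UPM in the controls and from 22296 to 28864 in the knockouts, and its part in the member differences was not tested. Of the single markers, Des separated upward, while Myh11 and Acta2 had higher means in knockout with overlap. The 6 pericyte markers summed to 3324 to 5589 in the controls and 1061 to 4109 in the knockouts, with overlap. Col18a1 stood at 304, 314 and 249 CPM in the controls and at 409.5, 363 and 443 in the knockouts. Every knockout was above every control, a separation that 4 members and 4.68% of genes showed (log2 fold change 0.48, SE 0.20, adjusted p = 0.9998). The other 3 were Col4a2, Bgn and Mmp14, and 0 members separated downward, where 5.66% of genes did.

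Loxl1 in smooth muscle-like cells stood at 69.6, 63.7 and 48.1 CPM in the controls and at 56.1, 119 and 98.9 in the knockouts, with knockout 1 among the controls (0.65, SE 0.25, adjusted p = 0.9998, and 0.43 without knockout 2). Postn had the smallest p among members lower in knockout (-0.75, SE 0.36, adjusted p = 0.9998), at 25.6, 27.4 and 14.1 CPM against 11.2, 16.7 and 13.1. The ranges overlapped through control 3, whose class had 32 cells. Col6a1 stood at 42.6, 36 and 67.9 CPM against 11.2, 33.4 and 53.6, with overlap (-0.26, SE 0.39). This value rests on single libraries: it was -0.03 without control 3 or without knockout 1, -0.49 without control 2 and -0.76 without knockout 3. Knockout 1, with 12 cells, gave the lowest level of 16 of the 30 members at or above 10 UPM.

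In Dpt fibroblast-like cells all 36 members were tested. edgeR called 0 members and 0% of 7806 genes, 0 members had an unadjusted p under 0.05 (3.18% of genes), and DESeq2 called 0 members and 0.0256% of genes. The groups overlapped for all 36, while 4.32% of genes had every knockout above and 5.03% every knockout below the controls. The median log2 fold change was 0.21 over members and 0.00 over all genes, with 23 members positive. Col1a2 stood at 2293, 1222 and 1402 CPM in the controls and 3406, 1264 and 2709 in the knockouts. Knockouts 1 and 3 were above all controls and knockout 2 was among them (log2 fold change 0.59, SE 0.37, adjusted p = 1.00). It was 0.28 without knockout 1, 0.90 without knockout 2 and 0.91 without control 1. Col1a1 had a wider split of the same kind (0.93, SE 0.63), and Dcn differed by -0.13 (SE 0.22).

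Col6a3 in this class stood at 378, 227 and 321 CPM in the controls and 548, 289.7 and 439 in the knockouts, with overlap through knockout 2 (0.46, SE 0.27, adjusted p = 1.00, with 0.28 without control 2 and 0.25 without knockout 1). Without the 3 mixed sub-clusters its log2 fold change was 0.85 and still did not pass adjustment (adjusted p = 1.00), with levels of 196, 244 and 284 UPM in the controls and 510, 382 and 431 in the knockouts. Col8a1 stood at 44.8, 56.0 and 49.1 CPM against 56.3, 14.7 and 17.2, so that knockout 1 was the highest of the 6 libraries and knockouts 2 and 3 the lowest (-0.93, SE 0.43, with -1.62 without knockout 1 and -0.59 without knockout 3). It rests on 7 to 73 UMIs per library, and its log2 fold change was -0.42 without the mixed sub-clusters. Thbs1 stood at 44.8, 171 and 279 CPM against 107, 33.6 and 113, with overlap (-1.01, SE 0.70). It was -0.39 without control 3, -0.65 without knockout 2 and -0.31 without the mixed sub-clusters.

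Osr1 Fndc1 cells gave the largest count of members with a small p. edgeR called 0 of 30 members and 0% of 8067 genes, while 7 members had an unadjusted p under 0.05 against 6.04% of genes. DESeq2 called 0 members and 0.0124% of genes. The median log2 fold change of members was 0.19 against 0.01 over all genes, and 21 were positive. Eln, the elastin gene, stood at 103, 103 and 109 CPM in the controls and at 162.9, 218 and 202 in the knockouts. The controls lay close together and every knockout was above them (log2 fold change 0.86, SE 0.19, adjusted p = 0.307). The counts behind this were 58 to 208 UMIs per library, and knockout 2 rests on 10 cells. The summed mesothelial and cholangiocyte marker lists separated in the same direction in these cells, though not every gene on them did. The 10 mesothelial markers, all 10 detected, summed to 5623 to 6077 UPM in the controls and 6699 to 6969.5 in the knockouts. The 10 cholangiocyte markers, all 10 detected, summed to 1213 to 1579.6 and 1825 to 2039.7. In mesothelial-like cells they summed to 1788 to 2359 over both groups. The mesothelial gene Msln stood at 277, 529 and 357 against 939.9, 767 and 671. Other mesothelial genes overlapped: Wt1 at 1192, 1183 and 1011 against 903, 983 and 1272, and Upk3b at 934, 880 and 924 against 922, 997 and 865. The cholangiocyte genes Epcam and Pkhd1 had lower means in knockout (4.82 against 5.37 and 0.809 against 12.1), with overlap. The part of these in the differences of Eln, Col6a1 and the other members was not tested.

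Col6a1 in Osr1 Fndc1 cells stood at 233, 309 and 291 CPM in the controls and 414, 364 and 438 in the knockouts, without overlap (0.55, SE 0.18, adjusted p = 0.725). Loxl1 was the third member with every knockout above every control, where 6.4% of genes were. Col4a2, Bgn, Sparc and Timp1 had differences of 0.92, 0.54, 0.68 and 0.77 with adjusted p from 0.746 to 0.809, and their groups overlapped. The Col4a2 value rests on 122 UMIs in all, and only 4 libraries held at least 10. For Sparc the highest library was knockout 2, at 2323 CPM against 857 to 1216 in the other 5.

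Serpinh1, the collagen chaperone, was the member with every knockout below every control in Osr1 Fndc1 cells, as were 6.31% of genes. It stood at 636, 866 and 551 CPM in the controls and at 274, 537 and 486 in the knockouts, with control 3 and knockout 2 close to each other (-0.69, SE 0.25, adjusted p = 0.746, and -0.43 without knockout 1). Col5a1, the next member lower in knockout, stood at 88.7, 65.1 and 88.1 CPM against 70.5, 86.3 and 43.2, with overlap (-0.32, SE 0.25, and -0.09 without knockout 3). Serpinh1 is itself a heat shock gene. The heat shock gene Hspa1b stood at 1713, 3634 and 2362 CPM against 1095, 1272 and 1608 in these cells, also without overlap (-0.96, SE 0.25, adjusted p = 0.656). In mesothelial-like cells Serpinh1 stood at 303, 525 and 298 CPM against 175, 237 and 336 (-0.59, SE 0.33, adjusted p = 0.419), and Hspa1b at 1281, 5881 and 3612 against 1277, 1385 and 1669. The highest library was control 2 for both genes in both classes. The other libraries did not keep 1 order: in Osr1 Fndc1 cells the lowest control was control 3 for Serpinh1 (551) and control 1 for Hspa1b (1713). In all kept cells Hspa1b stood at 2748, 3688 and 2913 CPM against 1421, 2169.9 and 1557, again without overlap. Whether the differences of Hspa1b and Serpinh1 are related was not tested.

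In mesothelial-like cells 33 members were tested. edgeR called 0 members and 0% of 13271 genes, and 3 members had an unadjusted p under 0.05 where 17% of genes had. The median log2 fold change was near 0 over members and over all genes. Lox, a collagen and elastin crosslinking enzyme, stood at 16.6, 21.1 and 16.8 CPM in the controls and at 11.9, 10.4 and 9.85 in the knockouts. Every knockout was below every control, as for 10.2% of genes (log2 fold change -0.76, SE 0.15, adjusted p = 0.111). These levels are low, but they rest on 76 to 174 UMIs per library. The edgeR adjusted p was 0.0212 when no genes were filtered for low counts. Many other genes also passed in that fit, and their count is given in the closing section.

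Thbs1 in mesothelial-like cells stood at 28.2, 61.1 and 51.3 CPM in the controls and 26.5, 23.7 and 31.9 in the knockouts, with control 1 inside the range of the knockouts (-0.77, SE 0.28, adjusted p = 0.245). It was the 1 member that DESeq2 called in this class (adjusted p = 0.0336), in which DESeq2 called 2.46% of genes. edgeR called it when control 1 was left out (log2 fold change -1.03, adjusted p = 0.0180), as 1 of 88 genes called in that fit. Fbln1 stood at 84.1, 93.5 and 80.4 CPM against 85.6, 135 and 129.5, with knockout 1 among the controls (0.44, SE 0.16, adjusted p = 0.232). Timp1 stood at 61.2, 92.1 and 59.8 CPM against 64.6, 121 and 188, with overlap again through knockout 1 (0.81, SE 0.44, adjusted p = 0.426, and 0.38 without knockout 3). Dcn, the most abundant member here, differed by 0.20 (SE 0.15, adjusted p = 0.529).

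In cholangiocyte-like cells, the epithelium of the bile ducts, 25 members were tested. edgeR called 0 members and 0% of 13311 genes, 2 members had an unadjusted p under 0.05 against 9.62% of genes, and DESeq2 called 0 members and 0.255% of genes. Col4a2 stood at 77.7, 69.6 and 66.7 CPM in the controls and 57.6, 56.9 and 60.2 in the knockouts. Every knockout was below every control, as for 7.66% of genes (-0.27, SE 0.10, adjusted p = 0.466). Fbln5 also separated downward at 0.976 to 5.74 CPM (-1.35, SE 0.46, adjusted p = 0.421), and Pcolce upward at 3.65 to 8.55 CPM, as for 8.55% of genes. Thbs1 stood at 54.3, 58.2 and 72.0 CPM against 33.8, 42.7 and 62.6, with knockout 3 among the controls (-0.40, SE 0.21, adjusted p = 0.587). It was -0.22 without knockout 1, -0.25 without control 3 and -0.69 without knockout 3. Of the abundant members, Fn1 differed by 0.13 (SE 0.10, and 0.07 to 0.17 with 1 library left out), Bgn by 0.17 (SE 0.12, and 0.07 to 0.25) and Timp3 by -0.19 (SE 0.14).

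Whether the genotype difference itself varied between classes was tested for all 36 members in 1 fit with the mouse as a block. edgeR called 0 members and 0% of 13709 genes, and 0 members had an unadjusted p under 0.05 against 3.76% of genes. The smallest p among members was that of Col4a2 (adjusted p = 0.9999). No member was therefore shown to respond differently from class to class.

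Summed over all kept cells, which asks about the recovered cells as a whole, fewer cells of a type and less RNA per cell cannot be told apart. edgeR called 0 of 36 members and 0% of 18360 genes, and 4 members had an unadjusted p under 0.05 against 2.63% of genes. Postn stood at 4.57, 4.66 and 5.89 CPM in the controls and 2.23, 2.64 and 2.81 in the knockouts. Every knockout was below every control, as for 3.77% of genes (-0.98, SE 0.21, adjusted p = 0.9999). DESeq2 called Postn (adjusted p = 0.0107) among 0.109% of genes. Tnc separated in the same way (1.34 to 2.52 against 0.434 to 1.14 CPM), while Timp1 and Loxl1 had every knockout above every control, as for 3.22% of genes. Loxl1 differed by 0.47 (SE 0.18), and by 0.25 without knockout 3. Postn and Tnc lie under 10 CPM and were picked after their values were seen. Among members of at least 10 CPM, Thbs1 had the smallest p of those lower in knockout, at 23.8, 61 and 50 CPM against 23, 30.3 and 35.7 (-0.60, SE 0.35, and -0.31 without control 2). Col6a3 followed at 10.2, 17.1 and 18.8 CPM against 7.8, 7.87 and 16.4 (-0.52, SE 0.37). It was -0.33 without knockout 1, -0.34 without knockout 2 and -0.97 without knockout 3. Both overlapped between the groups.

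The part of cell numbers in this was not tested. Dpt fibroblast-like cells accounted for 1.88% ± 1.60 of the control cells and 0.956% ± 0.517 of the knockout cells (SD, n = 3), and smooth muscle-like cells for 2.22% ± 2.01 and 0.818% ± 0.563. The lymphatic cluster gave 0.626%, 1.74% and 0.713% of cells in the controls and 0.412%, 0.440% and 0.581% in the knockouts. Within Dpt fibroblast-like cells the level of Postn was 165 ± 88.5 UPM in controls and 154 ± 28.1 in knockouts. Timp1 in all kept cells stood at 9.59, 14.1 and 11.5 CPM against 14.9, 17.2 and 42.8, with knockout 3 far above the others, and its log2 fold change of 1.09 was 0.46 without that library. Mesothelial-like cells, which held most Timp1 UMIs, accounted for 5.34% ± 1.32 of the control cells and 6.96% ± 2.48 of the knockout cells.

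A wider list of 81 other matrix genes was read in the same fits, of which 51 to 66 were tested in a class. edgeR called 0 of them in every class. The perlecan gene Hspg2, a proteoglycan of basement membranes, had the smallest p among those higher in knockout in both vessel classes. It stood at 194, 171 and 210.0 CPM in the controls and 275, 258 and 239 in the knockouts of endothelial-like cells, without overlap (0.43, SE 0.12, adjusted p = 0.842). In smooth muscle-like cells it differed by 0.41 (SE 0.20). Ccn2 (connective tissue growth factor) had the smallest p among those lower in knockout in 2 classes. It stood at 266, 186 and 287 CPM against 178, 107 and 94.6 in Dpt fibroblast-like cells (log2 fold change -0.998, SE 0.28, adjusted p = 1.00), and every knockout was below every control.

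In cholangiocyte-like cells Ccn2 stood at 258, 232 and 147 CPM against 137, 113 and 116, again without overlap (-0.79, SE 0.19, adjusted p = 0.353), and DESeq2 called it (adjusted p = 0.00317). Its relative Ccn1 had the smallest such p in Osr1 Fndc1 cells (-0.70, SE 0.24, adjusted p = 0.746). In mesothelial-like cells the protease gene Adamts1 stood at 60.3, 79.3 and 79.3 CPM against 38.7, 47.1 and 40.5 (-0.80, SE 0.13, adjusted p = 0.0816). DESeq2 called Adamts1 (adjusted p = 0.000144) and, in the other direction, Ecm1 (log2 fold change 0.49, SE 0.12, adjusted p = 0.0160). The other genes of smallest p were Mfap4 (0.74) in Dpt fibroblast-like, Ogn (0.41) in Osr1 Fndc1 and Efemp1 (0.22) in cholangiocyte-like cells, higher in knockout, and P4ha1 (-0.47) in smooth muscle-like and Ddr1 (-0.83) in endothelial-like cells, lower. In all kept cells Ltbp4 (0.28) had the smallest p among those higher in knockout.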

How the data were processed

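The deposited matrices hold raw UMI counts per gene and barcode, made by the authors with Cell Ranger 7.1.0 on mm10, and Seurat 4.1.1 is also named (per the submitters' processing notes). Gene positions came from GENCODE M21 (GRCm38) and RefSeq. Barcodes under 300 genes or over 20% mitochondrial UMIs were dropped, then 938 doublets by a Scrublet score above 0.267, a limit set after the scores were seen, since the automatic one failed in 2 libraries. Cells were clustered in scanpy 1.11.5 (3000 variable genes without the 36 members, 40 components, 20 neighbours, Leiden resolution 1) and clusters named by fixed markers, with score limits chosen after scores were seen. Library pairs shared 0.0974% to 0.328% of barcodes. UMIs were summed per library and class and tested in edgeR 4.0.16 (TMM, filterByExpr, robust quasi-likelihood), with DESeq2 1.42.0 as an alternative, and the scripts were tested on simulated data. Values after ± are SD over libraries. The members, lists and tests were chosen with earlier results of these data known. Named are the 5 highest members of a class, any past the threshold, otherwise up to 2 per direction of smallest p with at least 10 CPM, and the member with most UMIs in each role group; others were picked after their values were seen. Of the other genes, those of smallest p in each direction are named, except 1 that is not reported here. Alternatives were size factors, low-count filter, DESeq2, replicate block, leaving out each library, doublets, resolution 2 and cells without Ptprc.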

Additional observations from a re-analysis of the deposited data

Results flagged for a closer look

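Col4a2, a chain of basement membrane collagen, separated in opposite directions in 2 classes. In smooth muscle-like cells every knockout was above every control (log2 fold change 0.46, SE 0.23), and in cholangiocyte-like cells every knockout was below every control (-0.27, SE 0.10). Neither passed adjustment (edgeR adjusted p = 0.9998 and 0.466). It was singled out for this opposite separation, and the test of class by genotype over all 6 classes did not call it (adjusted p = 0.9999).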

How the results depend on the processing

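The counts of members called were 0 in each comparison and stayed 0 with DESeq2's size factors, with doublets kept, with clusters at resolution 2, in cells without a Ptprc UMI and with the replicate block. They became 1 with no filter on low counts in Osr1 Fndc1 cells (Eln, adjusted p = 0.0262) and in mesothelial-like cells (Lox, 0.0212), and 1 with DESeq2 in mesothelial-like cells (Thbs1) and in all kept cells (Postn). Leaving out 1 library gave 0 to 1 in mesothelial-like cells (Thbs1, without control 1) and 0 elsewhere. The cause of these changes was not tested. The 28 differences of members chosen by smallest p kept their direction in all 368 alternatives that could be fitted, but many depend on 1 library for their size, as given beside each: Fn1 in endothelial-like cells ran from -1.79 to -0.60 and Col6a1 in smooth muscle-like cells from -0.76 to -0.03. In endothelial-like cells Col5a2 was 0.14 without knockout 3, and Col6a3 was -0.20 without control 1 and -0.22 without knockout 2. Over all genes, counts of 0 became 24, 20, 40, 231, 0 and 16 with no filter and 0, 2, 1, 326, 13 and 34 with DESeq2 in smooth muscle-like, Dpt fibroblast-like, Osr1 Fndc1, mesothelial-like, endothelial-like and cholangiocyte-like cells, 20 with DESeq2 in all kept cells, and up to 88 in mesothelial-like cells without control 1. Libraries with the same number did not deviate together in every pair (correlations of deviations -0.152 to 0.308), so the number is not taken as a pairing. The replicate block left 0 members called and gave 0 to 4 called genes. Adding the lymphatic cluster to endothelial-like cells, or leaving out the mixed sub-clusters of the Dpt fibroblast-like class, both chosen after seeing the data, left 0 called. The Dpt fibroblast-like class was highest for 29 to 30 of 36 members. Depth limits members with few UMIs and classes with 10 or 12 cells in a library.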
